A study of Caenorhabditis elegans with 10 samples.

Results

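The aspartyl proteases of Caenorhabditis elegans described here are asp-1, asp-2, asp-3, asp-4, asp-5, asp-6 and asp-12, which the deposited table names CELE_F21F8.4. They were chosen by name, by matching 10 listed gene symbols to the gene names of the table, which holds 40857 symbols. Of the 10, 7 were found. The listed names asp-8 and asp-13 stand in the table under the sequence names F59D6.3 and F28A12.4 and are described with the other aspartyl proteases, and asp-10, from background knowledge an earlier name of hrg-7 (C15C8.3), was not matched under that name and is given beside them. The transcript of each gene was selected on its mean level over the 10 libraries, the highest being taken. This mattered for asp-2 alone, which has 2 transcripts, and the difference between groups played no part in it. All 7 genes passed the filter on low values, which was at least 1 FPKM (fragments per kilobase of transcript per M reads) in at least 2 of the 10 libraries, as did 16085 genes in all.

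Aspartyl proteases of the pepsin and cathepsin D family are made as inactive precursors and cut proteins with a pair of catalytic aspartates, most actively at acid pH. In worms they work in lysosomes and in the gut lumen, together with cysteine cathepsins and with the vacuolar ATPase, the proton pump that acidifies lysosomes. ASP-1 is known as a protease of intestinal cells. ASP-3 and ASP-4 are lysosomal relatives of cathepsin D that take part in the necrotic death of worm neurons.

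Messenger RNA of whole worms around the last larval stage was measured, with about 3000 worms per sample. The 5 genotypes were the wild type N2, the single mutants daf-2(e1370) and math-33(tm3561), and double mutants that carry daf-2(e1370) with either math-33(tm3561) or daf-16(mu86). For each genotype 1 sample stayed at 15 °C, and 1 was shifted to 25 °C for 22 hr from late in larval development. The daf-2 gene encodes the insulin/IGF-1 receptor of the worm, and e1370 is a temperature-sensitive allele of it. Low receptor activity frees the FOXO transcription factor DAF-16 to act in the nucleus. MATH-33 is a deubiquitylating enzyme, and the study asked how DAF-16 target genes are expressed without it. The alleles are named in full here and shortened below to the gene names.

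There was 1 library per group. A difference between 2 libraries therefore comes without a p-value or a check by replicates, and the 95% intervals given for folds cover counting error only. Depth was 25.2 to 35.2 M reads per library, so the 6 strongly expressed genes rested on at least 3389 read pairs in every library and asp-12 on at least 61. The math-33 transcript stood at 13.9 to 15.9 FPKM in the 4 libraries with the math-33 allele and at 59.8 to 79.3 FPKM in the other 6. The math-33 library at 25 °C stood apart in genes of developmental stage. The summed level of 12 molting and larval cuticle genes was 239 FPKM there and 1168 to 2505 FPKM in the other 9 libraries.

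asp-1 was the most abundant of the 7 genes in every library, and in 6 of the 7 genes the highest level was at most 3.48 times the lowest. asp-1 (chromosome V, 19049533 to 19050723 in the coordinates of the table) stood at 4922 FPKM in N2, 3006 in math-33, 4987 in daf-2, 4157 in daf-2;math-33 and 4466 in daf-16;daf-2 at 15 °C. At 25 °C it stood at 2966 FPKM in N2, 2302 in math-33, 2515 in daf-2, 2583 in daf-2;math-33 and 3856 in daf-16;daf-2. It ranked between 6 and 28 among all gene symbols of a library. The highest level was 2.17 times the lowest.

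asp-3 and asp-6 followed with overlapping ranges. asp-3 (chromosome X, 6791152 to 6792532) stood at 2235, 1316, 2467, 1956 and 2064 FPKM at 15 °C in N2, math-33, daf-2, daf-2;math-33 and daf-16;daf-2, and at 1155, 1103, 1975, 1408 and 1487 FPKM at 25 °C in the same order. asp-6 (chromosome V, 8267594 to 8268915) stood at 1938, 1364, 2357, 1889 and 2332 FPKM at 15 °C and at 1291, 1150, 1738, 1497 and 1665 FPKM at 25 °C. Both were lowest in math-33 at 25 °C and highest in daf-2 at 15 °C. asp-3 was above asp-6 in 4 libraries and below it in 6, so their order is not a stable one.

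asp-5 ranked below asp-1, asp-3 and asp-6 and above the rest in every library, and varied least. asp-5 (chromosome V, 8272367 to 8273968) stood at 922, 674, 1005, 972 and 770.1 FPKM at 15 °C and at 639.6, 744, 906, 1060.3 and 839 FPKM at 25 °C, in the same order of genotypes. Its highest level was 1.66 times its lowest. Its lowest library was N2 at 25 °C and its highest daf-2;math-33 at 25 °C, so the 2 temperatures overlapped.

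asp-4 and asp-2 had near levels in most libraries, with asp-4 the higher in all 10. asp-4 (chromosome X, 13219006 to 13221358) stood at 310.4, 251, 414, 322 and 350.3 FPKM at 15 °C and at 305, 263, 874, 403 and 354 FPKM at 25 °C. The daf-2 library at 25 °C was the highest by far. asp-2 (chromosome V, 9203056 to 9204622) stood at 291, 237, 261, 229.5 and 312 FPKM at 15 °C and at 291, 254, 169, 197 and 305 FPKM at 25 °C. Here the daf-2 library at 25 °C was the lowest. A longer asp-2 transcript (9199657 to 9204622) shares this stretch and stood at 116 to 213 FPKM, and summing both transcripts left every asp-2 difference within 0.01 log2 units of the values given.

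asp-12 was the lowest of the 7 genes in every library and had the widest range. asp-12 (CELE_F21F8.4, chromosome V, 8270625 to 8271988) stood at 83.4 FPKM in N2, 85.9 in math-33, 109 in daf-2, 40.5 in daf-2;math-33 and 62.3 in daf-16;daf-2 at 15 °C. At 25 °C it stood at 3.75 FPKM in N2, 7.98 in math-33, 10.1 in daf-2, 7.03 in daf-2;math-33 and 5.78 in daf-16;daf-2. Its highest level was 29.1 times its lowest, and no 25 °C library reached any 15 °C library. The gene lies between 2 of the others, 378 bases from asp-5 and 1709 bases from asp-6, and neither of these neighbours showed such a gap between the temperatures. A short transcript of another gene, Y54B9A.1, spans all 3 of these genes in the table. The sources used here do not say how reads shared by overlapping or similar genes were assigned, so values of these paralogs carry that uncertainty.

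**Figure D1:**
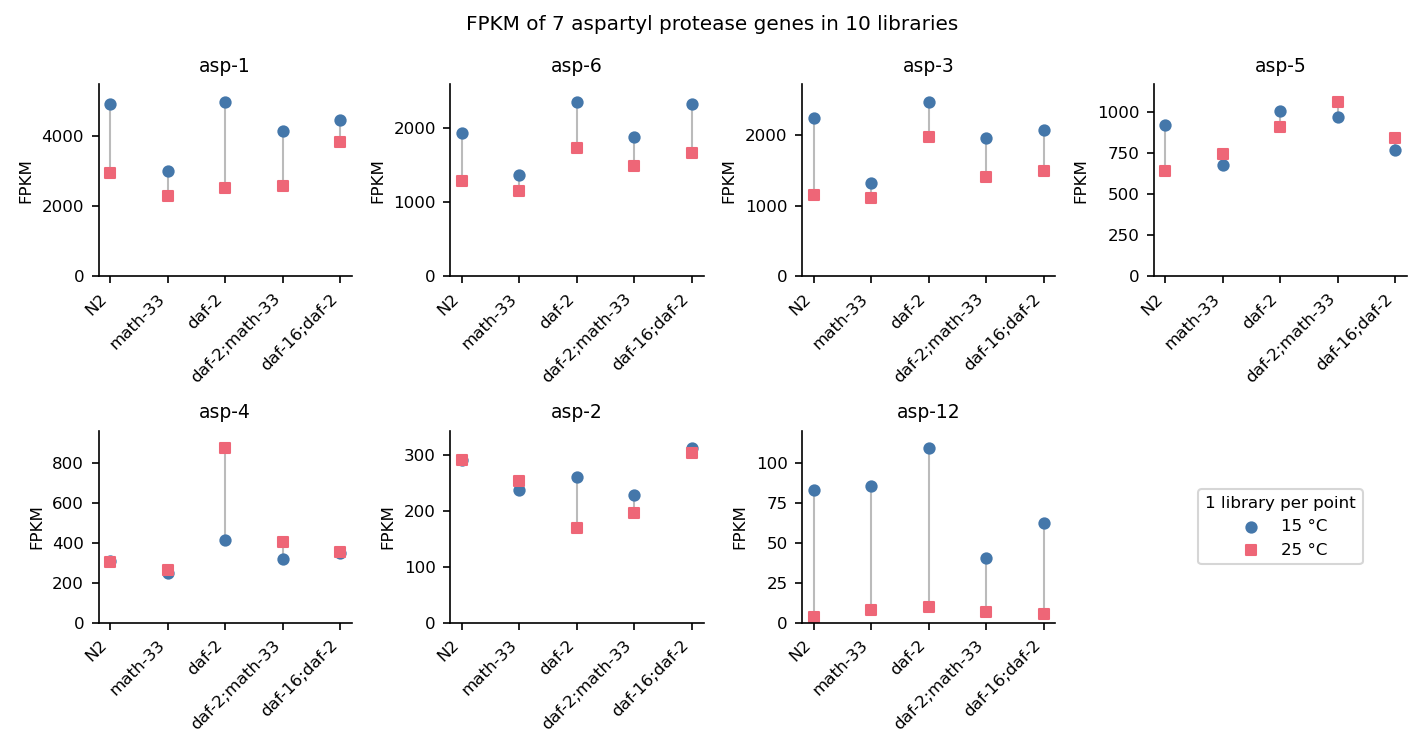
Level of each of the 7 aspartyl protease genes in FPKM (vertical axes, linear and starting at 0) for the 5 genotypes (horizontal axes), 1 library per point, with 15 °C as circles and 25 °C as squares. asp-12 separates the temperatures in every genotype, and asp-4 reaches 874 FPKM in daf-2 at 25 °C.

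The levels of the 7 genes were also summed in each library. Their summed level at 15 °C was 10702 FPKM in N2, 6934 in math-33, 11600.4 in daf-2, 9566 in daf-2;math-33 and 10357 in daf-16;daf-2. At 25 °C it was 6652 FPKM in N2, 5824 in math-33, 8187 in daf-2, 7154 in daf-2;math-33 and 8513 in daf-16;daf-2. This was 0.540 to 1.07% of all FPKM of a library. All FPKM counts every transcript of a gene and the sum counts 1 per gene, so the percentage is no exact share of the messenger RNA. The sum was lower at 25 °C in each genotype, and the 15 °C library of math-33 was the one 15 °C library that lay below some 25 °C libraries. asp-1 held 39.5 to 46.0% of the sum in 8 libraries, 36.1% in the daf-2;math-33 library at 25 °C and 30.7% in that of daf-2 at 25 °C. asp-4 held 10.7% in daf-2 at 25 °C and 2.90 to 5.63% elsewhere. These are messenger RNA levels of whole worms, in which fewer cells of a type and less RNA per cell cannot be told apart.

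**Figure D2:**
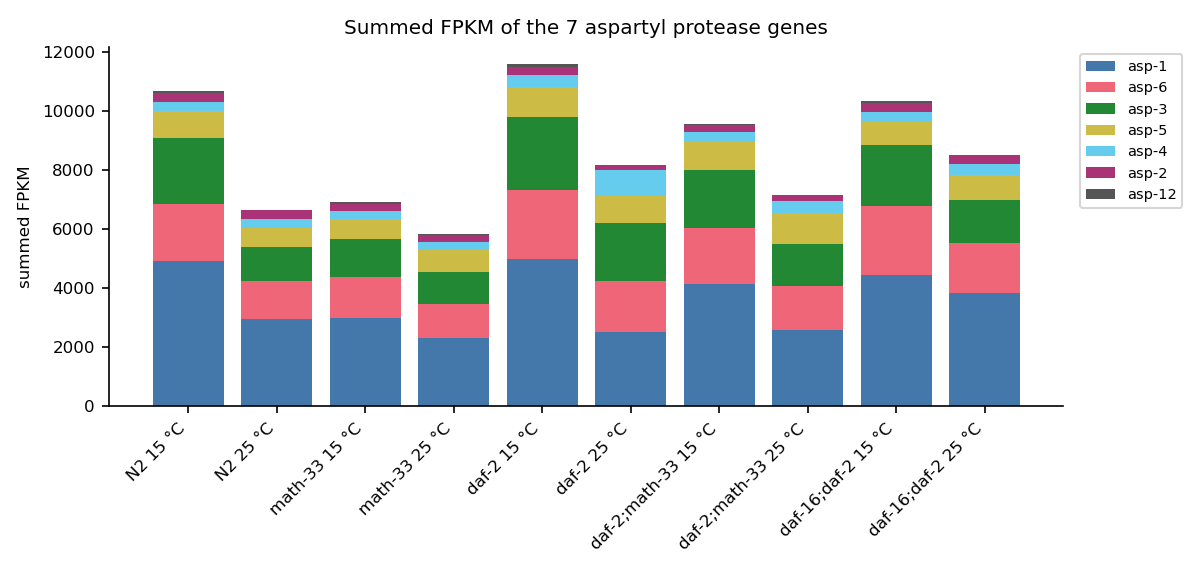
Summed FPKM of the 7 aspartyl protease genes (vertical axis, starting at 0) in each of the 10 libraries (horizontal axis), 1 stacked segment per gene. The sum runs from 5824 FPKM in math-33 at 25 °C to 11600.4 FPKM in daf-2 at 15 °C, and asp-1 is the tallest segment in every bar.

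Temperature was the condition for which any of these genes passed a test. It sets more libraries against each other than a comparison of 2 genotypes does, so these tests are not equally sensitive. Of the calls below, only that of asp-12 held in every alternative fit. Of the 7, 4 fell at 25 °C, asp-1, asp-3, asp-6 and asp-12, and none rose. The test was an additive limma model of genotype and temperature on log2(FPKM + 1) over all 10 libraries and 16085 genes, with Benjamini-Hochberg adjusted p-values. Its error is the variation of the temperature difference between genotypes, since no group has a replicate. Of all genes tested, 19.3% passed at an adjusted p of 0.05 for temperature, and 4.68% passed in the lower direction. Each of these 4 genes was lower at 25 °C in 5 of 5 genotypes, which held for 11% of all genes. The median over the 7 genes was -0.42 log2 units.

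asp-12 (CELE_F21F8.4) fell by 3.27 log2 units at 25 °C (SE 0.23, limma adjusted p = 0.00277). In N2 it was 22.3-fold lower at 25 °C (interval 17.4 to 29.5). It was 10.8-fold lower in math-33 (9.03 to 12.8), 10.8-fold lower in daf-2 (9.32 to 12.6), 5.76-fold lower in daf-2;math-33 (4.74 to 7.12) and 10.8-fold lower in daf-16;daf-2 (8.74 to 13.3). Every 25 °C library lay below every 15 °C library, which was so for 2.33% of all genes and for none of the other 6 aspartyl proteases named above. With each of the 10 libraries left out in turn the adjusted p ran from 0.0102 to 0.0190, and under the other settings from 0.00138 to 0.0433.

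asp-1, the intestinal protease, fell by 0.60 log2 units (SE 0.14, limma adjusted p = 0.0299). The difference between 25 and 15 °C was -0.73 in N2, -0.38 in math-33, -0.99 in daf-2, -0.69 in daf-2;math-33 and -0.21 in daf-16;daf-2. In daf-2 this was a 1.98-fold lower level (interval 1.96 to 2.01) and in daf-16;daf-2 a 1.16-fold lower level (1.15 to 1.17). The levels of the 2 temperatures overlapped, because daf-16;daf-2 at 25 °C, at 3856 FPKM, lay above math-33 at 15 °C.

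asp-3, one of the cathepsin D relatives, fell by 0.49 log2 units (SE 0.13, limma adjusted p = 0.0362), and asp-6 fell by 0.42 (SE 0.097, adjusted p = 0.0280). For asp-3 the difference was -0.95 in N2, where the level was 1.94-fold lower (interval 1.90 to 1.97), and -0.25 to -0.47 in the other 4 genotypes. For asp-6 it was -0.59 in N2 and -0.25 to -0.49 in the others. The calls of asp-1, asp-3 and asp-6 depended on the libraries and the filter. With no filter on low values their adjusted p was 0.523, 0.270 and 0.245. With 1 library left out, the adjusted p was at most 0.107 for asp-1, 0.110 for asp-3 and 0.0896 for asp-6, and the call was lost without 8, 10 and 8 of the 10 libraries.

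asp-2, asp-4 and asp-5 did not pass the temperature test, and their differences had no common direction. asp-5 was -0.53 log2 units different in N2 and between -0.15 and 0.14 in the other genotypes (limma adjusted p = 0.775). asp-2 was at -0.62 in daf-2, at -0.22 in daf-2;math-33 and between -0.03 and 0.10 in the others (adjusted p = 0.381). asp-4 was at 1.07 in daf-2, at 0.32 in daf-2;math-33 and between -0.02 and 0.07 in the others (adjusted p = 0.259). In daf-2 the asp-4 level at 25 °C was 2.11-fold that at 15 °C (interval 2.06 to 2.16), while asp-1, asp-2, asp-3, asp-5, asp-6 and asp-12 were all lower at 25 °C in daf-2.

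Counted by size, the members at least 1 log2 unit apart between the temperatures were few. asp-12 (CELE_F21F8.4) was lower by that much in all 5 genotypes, where 3.82% of all genes were so in N2, 6.73% in math-33, 3.72% in daf-2, 3.27% in daf-2;math-33 and 4.19% in daf-16;daf-2. asp-4 was higher by that much in daf-2, where 11.7% of all genes were. None of the 7 was higher by that much in the other genotypes, where the share of all genes was 13.3% in N2, 6.63% in math-33, 10.1% in daf-2;math-33 and 10.2% in daf-16;daf-2. Their medians were -0.59, -0.25, -0.44, -0.34 and -0.21 in N2, math-33, daf-2, daf-2;math-33 and daf-16;daf-2, beside 0.08, 0.02, 0.12, 0.06 and 0.13 over all genes.

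**Figure D3:**
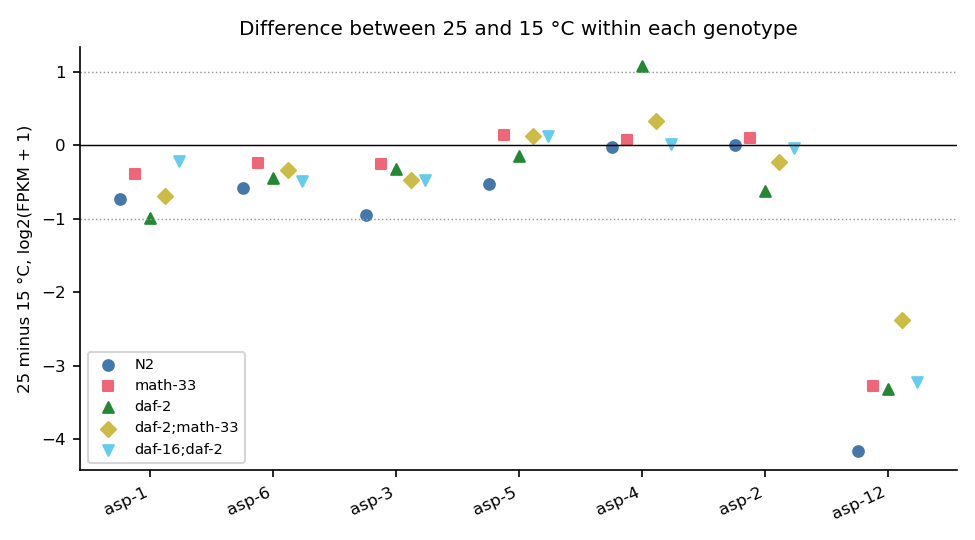
Difference between 25 and 15 °C within each genotype on the log2(FPKM + 1) scale (vertical axis) for the 7 genes (horizontal axis), 1 symbol per genotype, with dotted lines at 1 log2 unit in each direction. asp-12 lies between -2.37 and -4.15 in all 5 genotypes, and asp-4 in daf-2 is the one point above the upper dotted line.

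The temperature groups also differed in genes of other cells and stages. Of 10 sperm genes 8 rose at 25 °C, of 8 oocyte and eggshell genes 8 rose and of 5 vitellogenin (yolk protein) genes 5 rose. Of all 16085 genes 2346 rose, and 1381 rose with libraries centred on their median. The summed level of the sperm genes ran from 90.8 to 522 FPKM at 15 °C and from 188 to 1293 FPKM at 25 °C, that of the oocyte and eggshell genes from 242 to 676 and from 409.7 to 1417, and that of the vitellogenins from 1791 to 5976 and from 2772 to 12311. Of 8 intestinal marker genes 2 fell, elt-2, the GATA factor of the gut, and pept-1, a peptide transporter, and none rose. The summed intestinal level ran from 1329 to 1682 FPKM at 15 °C and from 1013 to 1413 FPKM at 25 °C. Of 12 molting and larval cuticle genes 1, ptr-4, fell, but 7 had a limma unadjusted p under 0.05 and the median was -0.88 log2 units. Their summed level ran from 1434 to 2505 FPKM at 15 °C and from 239 to 2029 FPKM at 25 °C. At least 1 log2 unit lower at 25 °C were 11 of the 12 in math-33, 3 in N2, 3 in daf-2;math-33, 1 in daf-16;daf-2 and 0 in daf-2. In daf-16;daf-2 1 was that much higher. Of 6 germline genes 0 changed, of 4 body wall muscle genes 2 fell (myo-3 and unc-54) and of 4 neuronal genes 1 fell (rab-3). No gene of these lists was at 0 in any library. The part of these cells and stages in the temperature differences of the aspartyl proteases was not tested.

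DAF-16 dependence under low receptor activity was read by setting daf-2 beside the strain that also lacks daf-16. At 25 °C asp-4 had the largest difference of the 7 genes, at 874 FPKM in daf-2 against 354 FPKM in daf-16;daf-2. This was 2.46-fold higher (interval 2.40 to 2.53), or 1.30 log2 units, more than in 95.6% of all genes. At 15 °C the same difference was 0.24, with 414 against 350.3 FPKM.

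asp-2 and asp-1 lay in the other direction at 25 °C. asp-2 was at -0.85, a 1.80-fold lower level in daf-2 (interval 1.73 to 1.88). asp-1 was at -0.62, a 1.53-fold lower level (1.52 to 1.55). asp-12 (CELE_F21F8.4) was 1.75-fold higher in daf-2 at both 15 °C (1.62 to 1.89) and 25 °C (1.36 to 2.23). asp-3 was at 0.41, asp-5 at 0.11 and asp-6 at 0.06. At 25 °C 1 of the 7 genes was at least 1 log2 unit higher, beside 7.06% of all genes, and 0 were that much lower, beside 5.09%. At 15 °C 0 of the 7 were past that size in either direction, beside 4.15% of all genes higher and 5.43% lower.

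The effect of losing math-33 in daf-2 worms was read from the double mutant. At 25 °C asp-4 stood at 403 FPKM in the double mutant and at 874 FPKM in daf-2, a 2.17-fold lower level (interval 2.11 to 2.23), or -1.12 log2 units. Both comparisons use the same daf-2 library. The daf-2;math-33 level of asp-4 lay between that of daf-2 and that of daf-16;daf-2, which was 354 FPKM. At 15 °C the difference was -0.36.

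The other genes differed less between daf-2;math-33 and daf-2 at 25 °C. asp-3 was 1.40-fold lower (interval 1.38 to 1.43), asp-12 (CELE_F21F8.4) 1.44-fold lower (1.14 to 1.84) and asp-6 1.16-fold lower (1.14 to 1.18). asp-1 was at 0.04 log2 units, asp-2 at 0.22 and asp-5 at 0.23. At 15 °C all 7 were lower, from -0.05 for asp-5 to -1.41 for asp-12, which was 2.70-fold lower (2.48 to 2.95). Past 1 log2 unit, 1 of the 7 was lower at 25 °C (asp-4, beside 5.13% of all genes) and 1 at 15 °C (asp-12, beside 1.97%). None was higher by that much, beside 11% of all genes at 25 °C and 8.80% at 15 °C.

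Against N2, daf-2 had a higher asp-4 level at 25 °C, at 874 against 305 FPKM, which was 2.86-fold (interval 2.78 to 2.95). asp-12 (CELE_F21F8.4) was 2.69-fold higher (2.02 to 3.69), at 10.1 against 3.75 FPKM. asp-3 was 1.71-fold higher (1.68 to 1.74) and asp-5 1.42-fold (1.38 to 1.45), whereas asp-2 was 1.72-fold lower (1.65 to 1.80). At least 1 log2 unit higher were 2 of the 7 genes, asp-4 and asp-12, beside 9.33% of all genes, and 0 were that much lower, beside 9.28%. At 15 °C the 7 differences ran from -0.16 for asp-2 to 0.42 for asp-4. None was past 1 log2 unit, beside 2.92% of all genes higher and 2.85% lower. In daf-2 at 25 °C, 7 of 10 sperm genes and 5 of 8 oocyte and eggshell genes were at least 1 log2 unit lower than in N2. Of both lists 0 were that much higher. The part of these cells in the differences of the aspartyl proteases was not tested.

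The math-33 single mutant had lower levels of most of these genes than N2 at 15 °C. asp-3 was 1.70-fold lower (interval 1.67 to 1.73), asp-1 was at -0.71 log2 units, asp-6 at -0.51, asp-5 at -0.45, asp-4 at -0.31 and asp-2 at -0.29. asp-12 (CELE_F21F8.4) was at 0.04. At 25 °C asp-12 was 2.13-fold higher in math-33 (1.59 to 2.95), at 7.98 against 3.75 FPKM, and the other 6 genes lay between -0.37 for asp-1 and 0.22 for asp-5. None of the 7 was past 1 log2 unit at either temperature. Of all genes 11.5% were higher and 2.79% lower by that much at 15 °C, and 5.25% higher and 7.16% lower at 25 °C. At 15 °C, 9 of 10 sperm genes and 5 of 5 vitellogenin genes were at least 1 log2 unit higher in math-33 than in N2. None of either list was that much lower. The median was -0.34 for the intestinal markers and -0.42 for body wall muscle, beside -0.45 for the 7 genes. These differences and the low molting gene level of the math-33 library at 25 °C stand beside the values given. Their part in those values was not tested.

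The daf-16;daf-2 strain differed little from N2 in these genes. At 25 °C all 7 were higher in daf-16;daf-2, from 0.07 log2 units for asp-2 to 0.51 for asp-12 (CELE_F21F8.4), with a median of 0.37. asp-1 was 1.30-fold higher (interval 1.28 to 1.32). At 15 °C the differences ran from -0.42 for asp-12 to 0.27 for asp-6. None was past 1 log2 unit, beside 4.18% of all genes higher and 2.90% lower at 15 °C and 3.85% higher and 6.43% lower at 25 °C.

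**Figure D4:**
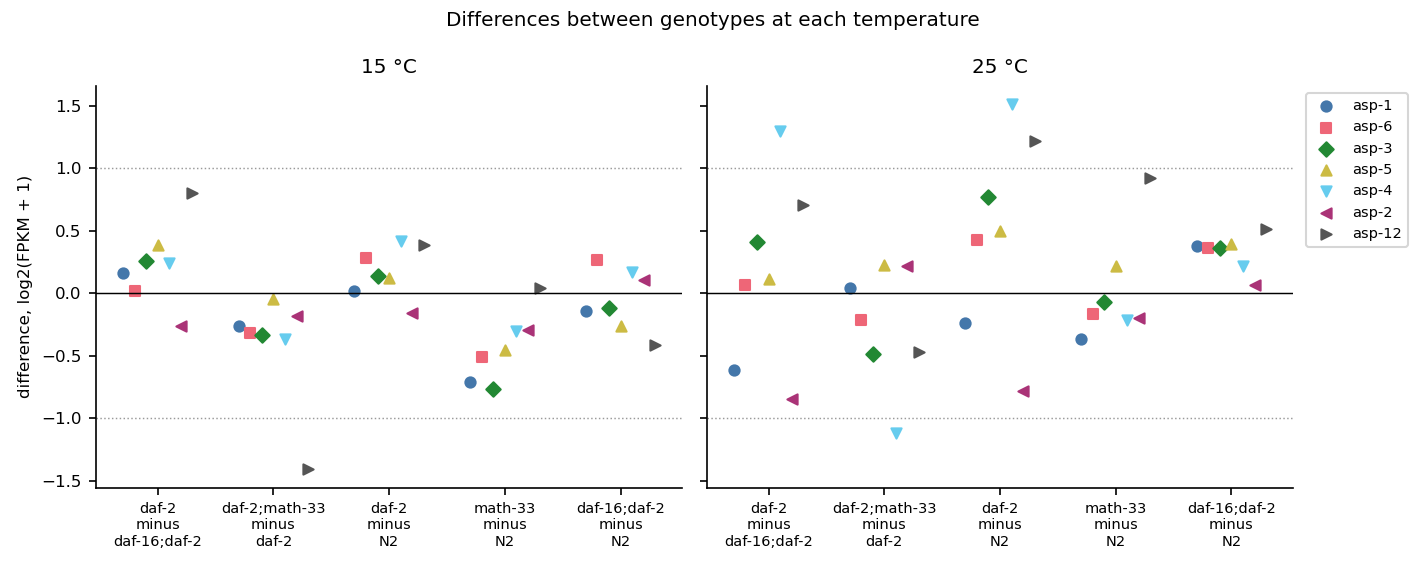
Differences between 2 genotypes on the log2(FPKM + 1) scale (vertical axis) for the 7 genes (symbols) in 5 comparisons (horizontal axis), at 15 °C on the left and 25 °C on the right, with dotted lines at 1 log2 unit in each direction. At 25 °C asp-4 lies at 1.30 and 1.51 where daf-2 is compared with daf-16;daf-2 and N2, and at -1.12 where daf-2;math-33 is compared with daf-2.

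Over both temperatures none of the genotype differences of these genes passed the limma test. For daf-2 against daf-16;daf-2, 0 of the 7 passed and 2 had an unadjusted p under 0.05, asp-4 (0.77, SE 0.27, limma adjusted p = 0.336) and asp-2 (-0.55, SE 0.19, adjusted p = 0.329). For daf-2;math-33 against daf-2, 0 passed and 2 had an unadjusted p under 0.05, asp-4 (-0.74, adjusted p = 0.261) and asp-12 (CELE_F21F8.4, -0.94, adjusted p = 0.287). For daf-2 against N2, 0 passed and 2 did so unadjusted, asp-4 (0.96, adjusted p = 0.269) and asp-2 (-0.47, adjusted p = 0.347). For math-33 against N2, 0 passed and 1 did so unadjusted, asp-1 (-0.54, adjusted p = 0.266). For daf-16;daf-2 against N2, 0 passed and 0 did so unadjusted. For the interaction between daf-2 and math-33, 0 passed and 1 did so unadjusted, asp-12 (-1.42, SE 0.51, adjusted p = 0.550). With 1 library left out in turn that interaction ran from -0.86 to -1.98. The smaller values came without N2 at 25 °C or the double mutant at 15 °C, and the larger ones (-1.97 and -1.98) without N2 at 15 °C or the double mutant at 25 °C.

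Few genes of any kind passed these genotype tests. Of all 16085 genes 0.0373% passed for daf-2 against daf-16;daf-2, 0.0124% for daf-2;math-33 against daf-2, 0.0% for daf-2 against N2, 0.441% for math-33 against N2, 0.0% for daf-16;daf-2 against N2 and 0.0% for the interaction. At an unadjusted p under 0.05 the counts were 1964, 2415, 2189, 2950, 1182 and 1390 genes in the same order. The additive model takes a temperature difference that varies between genotypes into its error. For asp-4 this difference was 1.07 in daf-2, 0.32 in daf-2;math-33 and between -0.02 and 0.07 in the others. With 1 library per group, a response of 1 genotype cannot be told from a single deviating library. With the daf-2 library at 15 °C left out, asp-4 was at 1.26 for daf-2 against daf-16;daf-2 and at 1.45 for daf-2 against N2. daf-2 is then 1 library, at 25 °C, and is assumed to vary like the other genotypes. With the daf-2 library at 25 °C left out instead, the same differences of asp-4 were 0.28 and 0.48, so the size of both rests on the daf-2 library at 25 °C. For daf-2;math-33 against daf-2, asp-4 was at -1.23 without the daf-2 library at 15 °C and at -0.25 without that at 25 °C. Without the same libraries, asp-2 was at -0.84 and -0.26 for daf-2 against daf-16;daf-2 and at -0.76 and -0.18 for daf-2 against N2. asp-12 (CELE_F21F8.4) was at -0.38 and -1.50 for daf-2;math-33 against daf-2 when the daf-2;math-33 library at 15 or 25 °C was left out, and neither passed.

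Among themselves the genes fell into different patterns over the 10 libraries. asp-3 and asp-6 were the closest pair, with a Pearson correlation of 0.947 and a Spearman correlation of 0.976. asp-1 correlated with asp-6 at 0.827 (Spearman 0.830) and with asp-3 at 0.758 (Spearman 0.782). asp-4 had a Pearson correlation of -0.155 with asp-1, where Spearman had the opposite sign at 0.139, and of -0.636 with asp-2, where Spearman was -0.224. In both the daf-2 library at 25 °C is far from the rest. asp-5 and asp-12 (CELE_F21F8.4), which lie next to each other, correlated at 0.183 (Spearman 0.248). These values describe 10 libraries that share 2 temperatures and 5 genotypes, and have no test.

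Genes whose levels were most like those of 3 of the aspartyl proteases were looked for by Pearson correlation over the 10 libraries among 5207 genes. For asp-1 they were T21B6.3 (0.972), Y39G8B.9 (0.958), nspb-6 (0.953), K12H4.7 (0.951), which encodes a serine carboxypeptidase-like protein, and jmjc-1 (0.950). For asp-12 they were cpr-1 (0.931), a cathepsin B-like cysteine protease of the gut, C37C3.10 (0.916), C15A11.7 (0.890), Y41C4A.11 (0.889) and ifc-1 (0.888), an intermediate filament gene. For asp-4, chosen for this after its values were seen, they were djr-1.2 (0.985), a relative of DJ-1, ZC412.3 (0.973), ctl-2 (0.973), a peroxisomal catalase, Y38E10A.28 (0.970) and maa-1 (0.969).

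These genes were picked for their correlation over the same libraries, so a shared pattern follows from the choice, and their values are a description. djr-1.2 stood at 32.7 FPKM in daf-2 at 25 °C and at 0.285 to 3.58 FPKM elsewhere. ctl-2 stood at 109 FPKM there and at 40.5 to 67.5 FPKM elsewhere. cpr-1 stood at 313 to 495 FPKM at 15 °C and at 95.7 to 246 FPKM at 25 °C, and its temperatures did not overlap. In daf-2 at 25 °C cpr-1 was above its other 25 °C levels, as was asp-12.

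**Figure D5:**
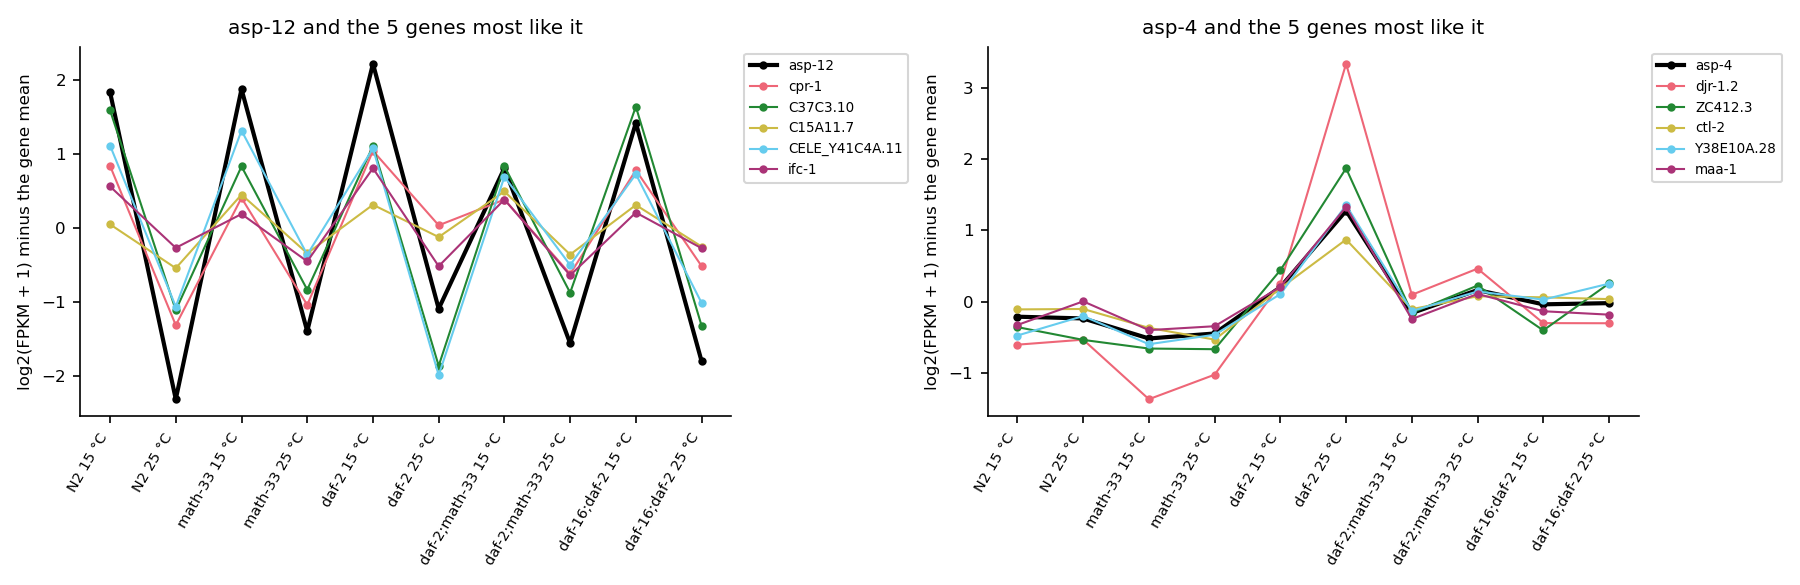
Level of asp-12 (left) and asp-4 (right), as thick black lines, and of the 5 genes most like each over the 10 libraries (horizontal axes), on the log2(FPKM + 1) scale minus the mean of the gene (vertical axes). The asp-12 group alternates between 15 and 25 °C, and the asp-4 group peaks in daf-2 at 25 °C.

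Another 11 genes carry an asp name in the RefSeq gene table, which marks aspartyl proteases of the pepsin family, and were below asp-1 to asp-6 in every library, but not all were below asp-12. Of these, 5 passed the filter on low values. asp-13 (F28A12.4) stood at 95.4 to 131 FPKM, above asp-12 in each of the 10 libraries, and was higher at 25 °C in 5 of 5 genotypes, by 0.20 log2 units (SE 0.073, limma adjusted p = 0.102). asp-14 (K10C2.3) stood at 26.8 to 56.5 FPKM, above asp-12 in each of the 5 libraries at 25 °C. The pseudogene asp-11 and asp-7, asp-15, asp-16, asp-18 and asp-19 stood at 0 to 0.506 FPKM. hrg-7 (C15C8.3), which has no asp name in that table and was added after its values were seen, was more abundant, at 131 to 601 FPKM. It fell by 0.95 log2 units at 25 °C (SE 0.16, limma adjusted p = 0.0126).

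asp-8 (F59D6.3) stood at 23.9, 24.2, 39.0, 15.2 and 27.2 FPKM at 15 °C in N2, math-33, daf-2, daf-2;math-33 and daf-16;daf-2, and at 12.6, 9.52, 32.1, 22.0 and 15.9 FPKM at 25 °C. It was highest in daf-2 at both temperatures. At 25 °C the daf-2 level was 2.03 times that of daf-16;daf-2 (interval 1.78 to 2.31) and the daf-2;math-33 level 1.46-fold lower than that of daf-2 (1.29 to 1.65). The larger difference between daf-2;math-33 and daf-2 was at 15 °C, at -1.30 log2 units, where 1.97% of all genes were at least 1 log2 unit lower.

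asp-9 (C11D2.2) was near 0 in most libraries, with 0.220 to 0.838 FPKM in the N2, math-33 and daf-16;daf-2 libraries and in daf-2 at 15 °C. It stood at 11.8 FPKM in daf-2 at 25 °C, and at 4.55 and 6.64 FPKM at 15 and 25 °C in daf-2;math-33. asp-9 passed the filter on low values through these libraries alone. At 25 °C the daf-2 level was 14.03 times that of daf-16;daf-2 (interval 8.45 to 27.0, from 213 and 14 read pairs). At 15 °C, in contrast, the daf-2;math-33 level was 11.7 times that of daf-2 (5.66 to 28.2, from 75 and 8 read pairs).

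asp-17 (CELE_Y39B6A.24), which lies in the same region of chromosome V as asp-1, was lowest in daf-2 at 25 °C. It stood at 0.520 FPKM there, at 0.922 FPKM in N2 at 25 °C and at 3.81 to 11.5 FPKM in the other 8 libraries. At 25 °C the daf-2;math-33 level was 18.7 times that of daf-2 (interval 9.46 to 38.0, from 158 and 10 read pairs). Of the 5 genes 0 passed the limma test for any contrast, and at an unadjusted p under 0.05 there was 1 for temperature, asp-13, and 0 to 2 for each of the other contrasts.

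The proteases and pumps that work beside aspartyl proteases in lysosomes were read as lists. Of all genes tested, 4.68% passed the temperature test in the lower direction. Of 10 cysteine cathepsins 4 fell at 25 °C and 0 rose. The 4 were cpr-1 (-1.38, limma adjusted p = 0.00768), W07B8.1, now cpr-8 (-1.18, adjusted p = 0.0158), cpr-3 (-1.02, adjusted p = 0.0236) and F57F5.1, now cpr-9 (-0.41, adjusted p = 0.0365). Of 22 vacuolar ATPase subunits 8 fell and 0 rose, among them vha-12 (-0.59, adjusted p = 0.0117) and vha-11 (-0.54, adjusted p = 0.0333). The median was -0.48 for the cathepsins and -0.31 for the ATPase, beside -0.42 for the 7 aspartyl proteases. Negative medians were not particular to these lists. They were -0.41 for the neuronal genes, -0.31 for body wall muscle, -0.27 for the intestinal markers and -0.88 for the molting and larval cuticle genes. The medians of the sperm, oocyte and eggshell, germline and vitellogenin genes were positive.

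Other lists of proteases and lysosomal genes held no gene that passed in the lower direction. Of 8 calpains, calcium-dependent cysteine proteases of the cytosol, 3 rose at 25 °C and 0 fell, with clp-6 at 1.30 (limma adjusted p = 0.0115). Of all 16085 genes 2346 rose and 753 fell. Of 7 aspartyl proteases of other folds 3 rose and 0 fell. They were hop-1, a presenilin, spe-4, a presenilin-like gene of sperm, and imp-3, an intramembrane protease. Of 13 genes of the lysosome membrane, its traffic and regulators 1 rose, the cystine transporter ctns-1 (0.56, adjusted p = 0.0145), and 0 fell.

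Between daf-2 and daf-16;daf-2 at 25 °C the cysteine cathepsins also held differences in both directions. cpr-4 stood at 1357 against 564 FPKM (1.27 log2 units) and cpr-5 at 156 against 708 FPKM (-2.18). Of the 10, 1 was at least 1 log2 unit higher, beside 7.06% of all genes, and 2 were that much lower, beside 5.09%. With math-33 lost in daf-2 worms, cpr-4 was at -1.17 and cpr-5 at 1.68. Of the 22 vacuolar ATPase subunits 0 were past that size in either comparison, with medians of -0.53 and 0.27. The 8 intestinal markers had medians of -0.39 and 0.08 in these 2 comparisons. Of these markers ges-1, a gut esterase, was at 1.43 in the first of them, whereas pept-1 was at -1.77. The part of intestinal cells in the asp-4 difference was not tested.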

How the data were processed

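The authors' deposited table gives FPKM for 47467 transcripts in 10 libraries of stranded, poly(A)-selected RNA. Per the submitters' processing notes, STAR, HOMER, edgeR and ce10 were used, with no role stated. Coordinates were taken from the table. Unnamed transcripts (1104, holding 1.72 to 1.97% of the FPKM) were left out. RefSeq names (assembly WBcel235) were matched for 40446 symbols. Promoter motifs were not searched and no sequences were used here. Depth in reads was recovered from low values, since FPKM times length came in whole steps (100.0% whole) in each library. Folds carry exact 95% intervals of 2 pair counts. Differences are of log2(FPKM + 1), which understates changes of weak genes, and were counted at 1 log2 unit. limma 3.58.1 (R 4.3.3) fitted genotype and temperature with a trend, leaving 4 residual degrees of freedom. It was tested on simulated data. Genes named beside the aspartyl proteases are at most 4 per list by size of difference, genes passing a test, and the 5 genes most like a gene (transcripts of at least 200 bases, 10 FPKM and a range of 1 log2 unit). Genes and lists were chosen with earlier results of these data known. Alternatives were other pseudocounts, filters, scalings, sums of transcripts, a 1.5-fold size and leaving out each library.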

Additional observations from a re-analysis of the deposited data

Results flagged for a closer look

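In 2 pairs of comparisons, differences of asp-12 (CELE_F21F8.4) had opposite directions in conditions set side by side. The first gap was not tested, and the second was tested only over both temperatures together. The daf-16;daf-2 library was higher than N2 by 0.51 log2 units at 25 °C, from 5.78 and 3.75 FPKM, and was at -0.42 at 15 °C, from 62.3 and 83.4 FPKM. At 25 °C math-33 was 0.92 log2 units higher than N2, whereas daf-2;math-33 was at -0.47 against daf-2. Over both temperatures the interaction was -1.42 (SE 0.51, limma adjusted p = 0.550), which did not pass. It was -0.86 without the daf-2;math-33 library at 15 °C or the N2 library at 25 °C, -1.97 without N2 at 15 °C and -1.98 without daf-2;math-33 at 25 °C, and passed in none of these (adjusted p = 0.478 to 0.993). Each rests on 1 library per group, and the first pair of values shares N2 and daf-16;daf-2 as genotypes.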

How the results depend on the processing

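No pairing of replicates was possible because each group has 1 library and the labels give no replicate numbers. The temperature test already pairs 25 with 15 °C within genotypes, since genotype is a term of its model. With a size of 1.5-fold in place of 1 log2 unit, the genes of the 7 counted between daf-2 and daf-16;daf-2 were 1 higher at 15 °C (12.6% of all genes), and 2 higher (15.2%) and 2 lower (12.8%) at 25 °C. At that size 3 were higher (18.9% of all genes) and 1 lower (18.8%) in daf-2 than in N2 at 25 °C. In math-33, 2 were lower than in N2 at 15 °C (8.61%) and 1 was higher at 25 °C (13.8%). Between the temperatures 4, 3 and 2 were lower at 25 °C in N2 (11.3%), daf-2 (9.57%) and daf-2;math-33 (8.86%). With quantile normalization 0 were lower in daf-2;math-33 than in daf-2 at 25 °C, with asp-4 at -0.90. With a pseudocount of 5, 1 was higher in daf-2 than in N2 at 25 °C, and with a pseudocount of 0.1, 1 was higher in math-33 than in N2 at 25 °C. Centring libraries on their median, which moved differences by up to 0.24, gave 2 lower at 25 °C in N2, and 0 higher (asp-4 at 0.84) and 2 lower in daf-2. By limma 1 of the 7 fell at 25 °C with no filter (40857 genes tested, the cause was not tested), and 1 to 2 fell with 1 library left out, which lowers the residual degrees of freedom. For daf-2 against daf-16;daf-2 and against N2, leaving out a daf-2 library leaves 1 daf-2 library, so asp-4 is given there by size only. Of all genes, 2346 rose and 753 fell with temperature, and 1381 and 1734 after centring, where the same 4 of the 7 fell. Depth limits asp-12 most, with 61 read pairs at its lowest. No called value changed direction under any alternative run.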

Other observations

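A gene outside the asp names, C15C8.3, now hrg-7, encodes an aspartic protease-like protein that signals haem status between tissues, and was chosen after its values were seen. It stood at 413, 191, 488, 329 and 601 FPKM at 15 °C in N2, math-33, daf-2, daf-2;math-33 and daf-16;daf-2. At 25 °C it stood at 199.9, 131, 185, 239.8 and 245 FPKM. It was lower at 25 °C in each genotype, by 0.95 log2 units in the limma fit (SE 0.16, adjusted p = 0.0126). At 15 °C it was 2.15-fold lower in math-33 than in N2 (interval 2.02 to 2.29), and at 25 °C 1.53-fold lower (1.41 to 1.65).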
